A study of Mus musculus with 4 samples.

Results

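The CCN proteins Ccn1, Ccn2 and Ccn3 are secreted matricellular proteins, which sit in the extracellular matrix and signal to cells rather than build the matrix. They were taken by name, as the transcript clusters (the probe groups that an array reports as 1 value) paired with Ccn1 (6910173), Ccn2 (6766623) and Ccn3 (6830481), which are 3 of 14860 named genes and 3 of 23332 clusters. RNA came from C2C12 cells, a line of mouse myoblasts that divide in rich serum and fuse into myotubes when serum is lowered. The 4 groups were differentiating cells given an siRNA against MUNC (siMUNC), differentiating cells given a control siRNA, proliferating siMUNC cells and proliferating control cells. MUNC is a long noncoding RNA made from the region before Myod1, which encodes the myogenic factor MyoD. Proliferating cells grew in 10% fetal bovine serum in high glucose medium. Differentiating cells were moved at 80% confluence to 2% horse serum and taken 3 days later.

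Each group was 1 culture of a single cell line on 1 array, so there are no replicates, no test was possible for any difference, and the order of 2 close values cannot be told from noise. The level of MUNC itself was not analysed here. Values are on a log2 scale, on which a difference of 1 is 2-fold. The 4 arrays had medians from 7.96 to 8.03 over all clusters and pairwise correlations from 0.964 to 0.988. A gene was counted as expressed in a comparison when its higher value reached 8.50, the median of gene means, and past 2-fold at a log2 difference of 1 or more in either direction. Myod1 (10.70 to 11.75), Myf5 (10.19 to 10.86) and the muscle intermediate filament gene Des (13.17 to 13.63) read above that level on every array, as the label of a myogenic line implies. Of 8 muscle markers 8 reached it in both groups of differentiating cells and 4 in both groups of proliferating cells. Of 7 endothelial markers 0 reached it on any array. Of 6 macrophage markers 1 reached it in siMUNC differentiating, 0 in control differentiating and 2 in both groups of proliferating cells, namely Cd68 (8.10 to 8.77 over the arrays) and Cd14 (7.63 to 8.67), while the pan-leukocyte gene Ptprc read 4.98 to 5.15. Of 6 adipocyte markers 4 reached it in siMUNC differentiating, 3 in control differentiating, 4 in siMUNC proliferating and 2 in control proliferating cells. Pparg (10.20 to 11.11) and Lpl (8.71 to 9.91) reached it on every array, while Adipoq read 4.81 to 5.36.

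CCN proteins share a modular build, with an insulin-like growth factor binding protein-like module, a von Willebrand factor type C module, a thrombospondin module and, in most members, a C-terminal cystine knot. They bind integrins and heparan sulfate proteoglycans. Ccn1 and Ccn2 are classical immediate early genes of serum and are widely used as readouts of the co-activators YAP and TAZ, which act on DNA through TEAD factors. Ccn2 is also a target of TGF-beta and is linked to fibrosis of muscle. Ccn3 is known to associate with the Notch1 receptor and to restrain myogenic differentiation of C2C12 cells.

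The 3 genes followed different patterns over the same 4 arrays. Ccn1 was higher with siMUNC in both states and differed little between states. Ccn2 was lower in differentiating cells by almost the same amount under both siRNAs, and higher with siMUNC by almost the same amount in both states. Ccn3 was higher in differentiating cells, most of all with siMUNC.

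**Figure D1:**
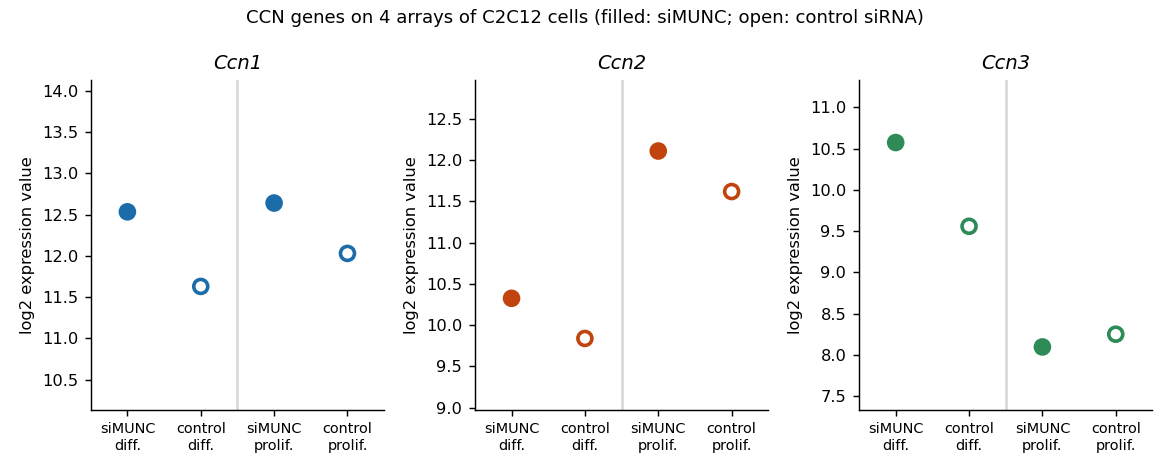
The log2 expression value of Ccn1, Ccn2 and Ccn3 (vertical axes, each spanning the same number of log2 units) is plotted for the 4 arrays along the horizontal axis, filled for siMUNC and open for control siRNA, 1 array per point and no error bars. Both filled points lie above both open points for Ccn1, the 2 differentiating arrays lie below the 2 proliferating arrays for Ccn2, and the 2 differentiating arrays lie above them for Ccn3.

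Ccn1 (formerly Cyr61) encodes a ligand of integrins that is induced by serum and by mechanical tension. The 250 bases before its start are shown because the factors by which Ccn1 is used as a readout act through short motifs. The sequence is from RefSeq, build GRCm38.p6, chr3:145649986-145650235, minus strand, printed in the direction of transcription, with 3 motifs in capitals: a TEAD motif, a short form of the cyclic AMP response element and a TATA motif.
Ccn1: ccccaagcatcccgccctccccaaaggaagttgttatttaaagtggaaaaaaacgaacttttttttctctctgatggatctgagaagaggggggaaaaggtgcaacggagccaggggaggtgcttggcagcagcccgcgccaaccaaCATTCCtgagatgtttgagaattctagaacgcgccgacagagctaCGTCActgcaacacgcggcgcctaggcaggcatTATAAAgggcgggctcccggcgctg

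The window was searched on both strands. The TEAD motif CATTCC lies 103 to 98 bases before the start, and 12.6% of 32851 RefSeq promoter windows of this length hold it. The cyclic AMP response element core TGACG lies, read on the other strand, 58 to 54 bases before the start (17.8% of windows), and TATAAA lies 25 to 20 bases before it (12.4%). The GC box GGGCGG occurs at 2 places (32.7%), and no capital stretch overlaps another motif that was found. The AP-1 motif TGANTCA (6.75% of windows), the SMAD motif CAGAC (42.2%), the E-box CANNTG (66.2%) and the CArG box (1.47%) had 0 matches, which says only that these letters are not in this window. Of the 3 members, 1 was matched in the promoter table.

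Ccn1 read 12.53 in siMUNC differentiating, 11.63 in control differentiating, 12.64 in siMUNC proliferating and 12.03 in control proliferating cells. From high to low the order was siMUNC proliferating, siMUNC differentiating, control proliferating and control differentiating cells. The siMUNC arrays were thus the 2 highest and differed from each other by 0.11. With siMUNC, Ccn1 was 1.87-fold higher in differentiating cells (log2 difference 0.90) and 1.53-fold higher in proliferating cells (0.61). Neither value is past 2-fold. In proliferating cells 62 of 7564 expressed genes (0.820%) were as high or higher, Ccn1 counted, and in differentiating cells 189 of 7635 (2.48%). Differentiating cells had a log2 value lower than proliferating cells by a small margin under both siRNAs, with differences of -0.11 in siMUNC cells and -0.40 in control cells. The difference between these differentiation effects was 0.29, inside the central 95% of 7968 expressed genes (-0.80 to 1.11).

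Ccn2 (formerly Ctgf) encodes connective tissue growth factor, a mediator of matrix deposition downstream of TGF-beta and YAP. It read 10.33 in siMUNC differentiating, 9.84 in control differentiating, 12.11 in siMUNC proliferating and 11.62 in control proliferating cells. Both differentiating arrays lay below both proliferating arrays. Ccn2 was 3.45-fold lower in differentiating than in proliferating siMUNC cells (-1.79) and 3.44-fold lower in differentiating than in proliferating control cells (-1.78). Past 2-fold lower were 1.34% of expressed genes in siMUNC cells and 6.58% in control cells, and past 2-fold in either direction 4.26% and 11.8%.

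The place of Ccn2 among other genes differed between the siRNAs, since fewer genes were far from 0 in siMUNC cells. In siMUNC cells 5 of 7672 expressed genes were as low or lower, Ccn2 counted, and in control cells 207 of 7856 (2.63%). Of 7560 genes expressed in both comparisons, which share no array, 4 were as low as Ccn2 or lower in both. The difference of the differentiation effects was -0.0049. With siMUNC, Ccn2 was 1.40-fold higher in differentiating cells (0.49) and 1.41-fold higher in proliferating cells (0.49), within 2-fold in both states. In differentiating cells 701 of 7635 expressed genes (9.18%) were as high or higher, and in proliferating cells 120 of 7564 (1.59%).

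Ccn3 (formerly Nov) encodes a ligand of integrins and of Notch1. It read 10.57 in siMUNC differentiating, 9.56 in control differentiating, 8.10 in siMUNC proliferating and 8.25 in control proliferating cells. Both differentiating arrays lay above both proliferating arrays, where Ccn3 read below the expressed level, so its folds rest on dim values. Ccn3 was 5.57-fold higher in differentiating than in proliferating siMUNC cells (2.48) and 2.48-fold higher in differentiating than in proliferating control cells (1.31). Past 2-fold higher were 2.92% of expressed genes in siMUNC cells and 5.21% in control cells.

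In siMUNC cells 36 of 7672 expressed genes (0.469%) were as high as Ccn3 or higher, and in control cells 280 of 7856 (3.56%). With siMUNC, Ccn3 was 2.02-fold higher in differentiating cells (1.02), a margin past 2-fold that 2 of 5 alternatives put just below it (0.97 to 0.99). The background there was 1.99% past 2-fold higher and 4.28% in either direction. In proliferating cells its knockdown difference was -0.15, from values below the expressed level on both arrays. The difference of differentiation effects was 1.17, and 178 of 7968 expressed genes (2.23%) were as high or higher, against a background of 2.96% past 2-fold higher, 1.78% lower and 4.74% in either direction. The 2 knockdown comparisons share no array with each other but each shares its arrays with a differentiation comparison, so these values are not independent of one another.

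**Figure D2:**
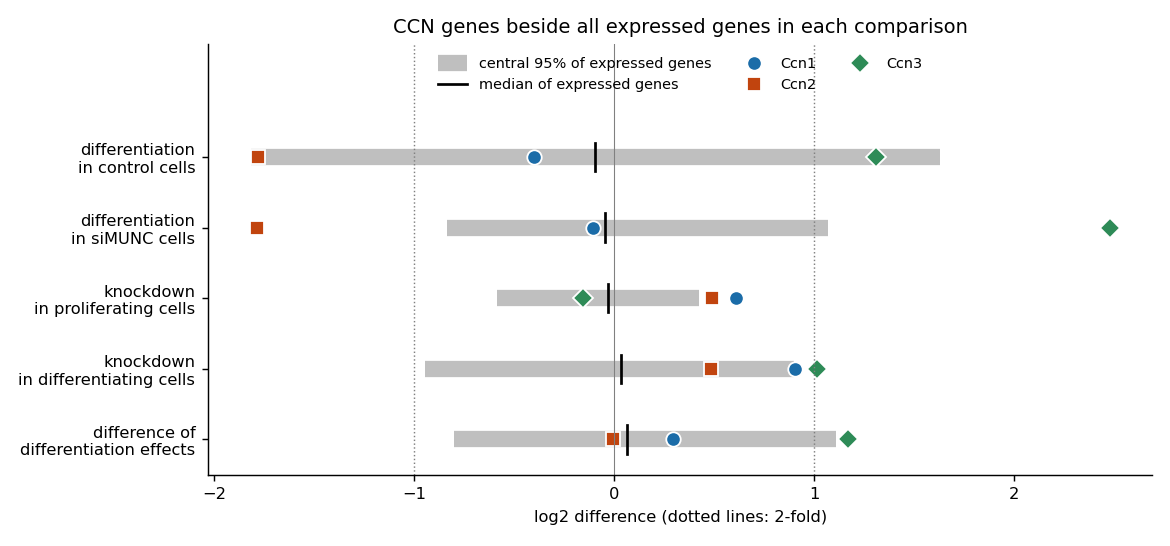
For each of the 5 comparisons (rows) the log2 difference (horizontal axis) is plotted for Ccn1, Ccn2 and Ccn3, with a grey bar for the central 95% and a black tick for the median of the expressed genes, and dotted lines at 2-fold. Ccn2 at -1.79 and Ccn3 at 2.48 lie outside the bar for differentiation in siMUNC cells (-0.84 to 1.07), and Ccn1 at 0.61 and Ccn2 at 0.49 lie above the bar for the knockdown in proliferating cells (-0.58 to 0.43).

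The knockdown in proliferating cells put 7 of 7564 expressed genes past 2-fold higher (0.0925%), while 0.304% were lower by as much and 0.397% differed that far in either direction, and 0 of the 3 CCN genes were among them. The 2 knockdown comparisons were also read together. Of 7231 genes expressed in both, 13 (0.180%) were as high as Ccn1 or higher in both states and 52 (0.719%) as high as Ccn2 or higher, each gene itself counted. For comparison, 32.2% of these genes were above 0 in both.

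**Figure D3:**
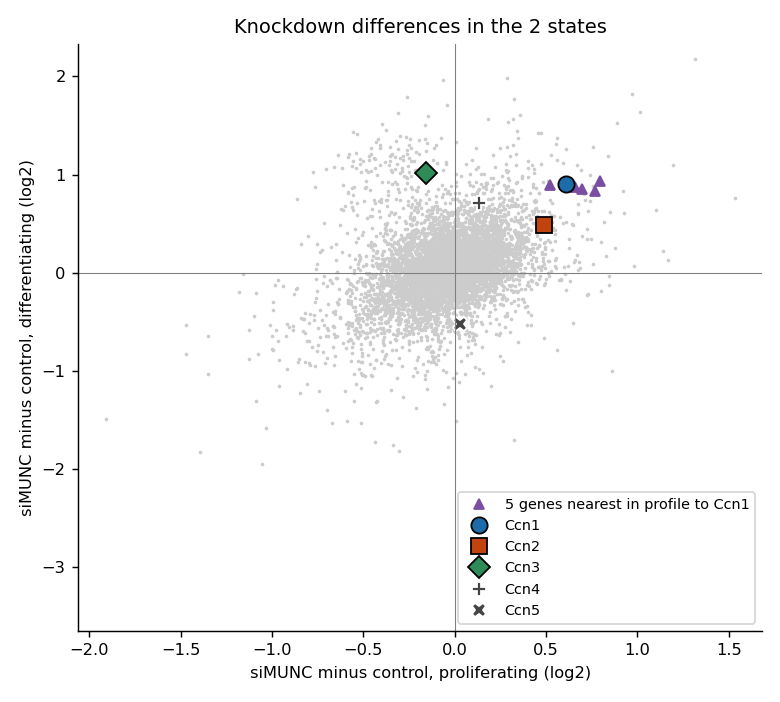
Each grey point is 1 of the 7231 genes expressed in both knockdown comparisons, with its siMUNC minus control log2 difference in proliferating cells (horizontal axis) and in differentiating cells (vertical axis). Ccn1 (0.61, 0.90) and Ccn2 (0.49, 0.49) lie to the upper right, and Ccn3 (-0.15, 1.02), which was below the expressed level in proliferating cells, lies near 0 on the horizontal axis; triangles mark the 5 genes nearest in profile to Ccn1.

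The other family members on the arrays were Ccn4 (formerly Wisp1) and Ccn5 (formerly Wisp2, which lacks the C-terminal module), while Ccn6 was not analysed here. Ccn4 read 11.43 in siMUNC differentiating, 10.72 in control differentiating, 11.08 in siMUNC proliferating and 10.95 in control proliferating cells. It was highest in siMUNC differentiating cells, as was Ccn3, with a knockdown difference of 0.71 in differentiating and 0.13 in proliferating cells. Ccn5 read 9.59, 10.12, 9.31 and 9.28 on the arrays in the same order. It was highest in control differentiating cells and was the one family member on the arrays that was lower with siMUNC in differentiating cells (-0.52), against 0.03 in proliferating cells. None of the 4 differences of either gene between states or siRNAs was past 2-fold.

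Profiles were compared over the 4 arrays after each gene was centred on its mean, with the Euclidean distance in log2 units as the measure and 4 points per gene. The nearest to Ccn1 among 7967 other expressed genes was Gja1, the gap junction protein connexin 43, at a distance of 0.050. Gja1 read 11.87 in siMUNC differentiating, 10.99 in control differentiating, 11.98 in siMUNC proliferating and 11.32 in control proliferating cells. The next were Lims2, a focal adhesion adaptor (0.12), Tbc1d9 (0.13), the stress-induced sestrin Sesn2 (0.13) and the signalling adaptor Crk (0.14). All 5 were higher with siMUNC in both states, by 0.52 to 0.80 in proliferating and 0.84 to 0.93 in differentiating cells. This follows from their selection by closeness to Ccn1 over the same 4 arrays and adds no separate evidence.

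The nearest profiles to Ccn2 were farther away: 1700012B09Rik (0.34), the organic anion transporter Slco4a1 (0.41), Mmd (0.43), the kinase Stk39 (0.44) and the acyl-CoA synthetase Acsbg1 (0.46). Slco4a1 was the one of these 5 with nearly equal differentiation differences under both siRNAs, -2.11 in siMUNC and -2.10 in control cells. The nearest to Ccn3 was Rerg, a Ras-related growth inhibitor, at 0.089, which read 9.73 in siMUNC differentiating, 8.66 in control differentiating, 7.31 in siMUNC proliferating and 7.37 in control proliferating cells. Then came the lipoprotein receptor Vldlr (0.59), the secreted Wnt modulator Sfrp2 (0.65), the secreted glycoprotein Stc1 (0.66) and the neuronal pentraxin Nptx1 (0.67). The distance was 1.56 between Ccn1 and Ccn2, 2.21 between Ccn1 and Ccn3 and 3.72 between Ccn2 and Ccn3. Among 7967 genes ranked by nearness to Ccn1, Ccn2 was at 7393 and Ccn3 at 7785. By nearness to Ccn2, Ccn1 was at 1909 and Ccn3 at 7837. By nearness to Ccn3, Ccn1 was at 5254 and Ccn2 at 7906. The distances depend on the range of a gene over the arrays, which was 1.01 for Ccn1, 2.27 for Ccn2 and 2.48 for Ccn3.

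**Figure D4:**
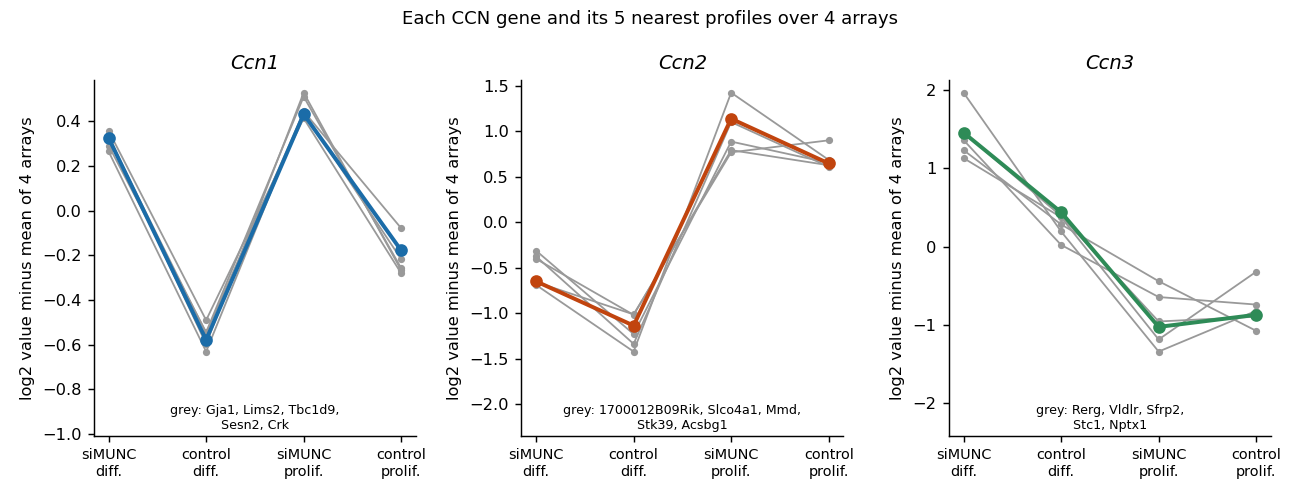
Each panel plots a CCN gene (coloured) and its 5 nearest genes (grey) as log2 values minus the mean of the 4 arrays (vertical axis) over the 4 groups (horizontal axis); lines join the points of a gene and carry no order. The grey lines follow Ccn1 at distances of 0.050 to 0.14 and, Rerg apart, spread more widely around Ccn3.

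Genes that neighbour the members in RefSeq were read for comparison where they had a cluster of their own. Moxd1, beside Ccn2, read 5.77 to 5.94 on the 4 arrays, and Mal2, beside Ccn3, read 5.51 to 5.58. Neither reached the expressed level.

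Lists of pathway genes were then described without the 3 members, all measured genes kept. The list counts thus hold some dim genes, which the shares over expressed genes leave out. A signature of YAP and TAZ targets known from cancer cells had 17 of 20 other members measured. In differentiating control cells 2 were past 2-fold higher, the stress-induced gene Gadd45a (2.38) and F3, which encodes tissue factor (1.17), and 1 was past 2-fold lower, the kinase gene Nuak2 (-1.09, and -0.97 with an offset of 50). Over all expressed genes 5.21% were that far higher and 6.58% that far lower, so 3 of 17 is near the background. The signature's median was -0.06, with 9 below 0, against -0.09 over all expressed genes, and its sign turned under 2 scalings. In differentiating siMUNC cells 3 were past 2-fold higher, Gadd45a (1.55), F3 (1.25) and Ccdc80 (1.25), and 0 past 2-fold lower (median 0.09). Over all expressed genes there, 2.92% were past 2-fold higher and 1.34% lower (median -0.05).

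With siMUNC 55.1% of all expressed genes were above 0 in differentiating cells (median 0.03) and 44.0% in proliferating cells (median -0.03), and the list counts that follow are read against these shares. Over all named genes, dim ones kept, the median was 0.01 in differentiating and 0.04 in proliferating cells. Of the 17 signature genes 11 were above 0 in differentiating cells (median 0.23) and 10 in proliferating cells (0.11). Nuak2 was past 2-fold higher in differentiating cells (1.06, and 0.94 with an offset of 50) and was at 0.43 in proliferating cells, where F3 lay farthest below 0 (-0.44). Ankrd1, a common YAP readout, is already counted among the 17 signature genes. Ankrd1 read 12.87 in siMUNC differentiating, 12.90 in control differentiating, 13.05 in siMUNC proliferating and 12.71 in control proliferating cells. Its knockdown difference was -0.02 in differentiating and 0.35 in proliferating cells, and its differentiation difference -0.18 in siMUNC and 0.19 in control cells.

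The factors behind these targets were read next. Of 20 Hippo, YAP, TAZ and TEAD components 14 were measured, and 0 were past 2-fold between states under either siRNA. Over all expressed genes 4.26% were past 2-fold between states in siMUNC and 11.8% in control cells, so few of 14 would be. Yap1 read 10.38 to 10.68 on the 4 arrays and Wwtr1, the gene of TAZ, 10.97 to 11.46. Tead4, a TEAD factor of the muscle lineage, was past 2-fold lower with siMUNC in differentiating cells (-1.07, where 2.29% of expressed genes were past 2-fold lower) and stood at -0.31 in proliferating cells. Its differentiation difference was 0.05 in siMUNC and 0.80 in control cells.

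Targets of SRF and its co-activators MRTF, which respond to actin dynamics, had 15 of 18 members measured. With siMUNC 13 of 15 were above 0 in proliferating cells (median 0.22, against 44.0% and -0.03 over all expressed genes), with Tagln, which encodes the smooth muscle protein transgelin, past 2-fold higher (1.53). Tagln read below the expressed level in control cells, at 8.28 in proliferating and 7.97 in differentiating cells. In differentiating cells 10 of 15 were above 0 (0.08, against 55.1% and 0.03), where Fhl2 (0.81) and Tagln (0.76) were farthest from 0. There 0 of the 15 were past 2-fold, against 4.28% of expressed genes, and in proliferating cells 0.397% of expressed genes were. Between states Tpm2, a tropomyosin, was past 2-fold higher in differentiating siMUNC (1.05) and control cells (1.56), and Tagln was past 2-fold lower in differentiating siMUNC cells (-1.08, and -0.998 with an offset of 50) at a difference of -0.31 in control cells.

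TGF-beta is an inducer of Ccn2. Of 14 ligands, receptors and Smads, Tgfb3 was past 2-fold higher in differentiating control cells (1.20) and the inhibitory Smad7 past 2-fold lower (-1.01), a margin that 4 of 5 alternatives put within 2-fold. In differentiating siMUNC cells the receptor Tgfbr2 was past 2-fold higher (1.02, and 0.97 after centring). Past 2-fold between states were 4.26% of expressed genes in siMUNC and 11.8% in control cells. With siMUNC 0 of the 14 were past 2-fold in either state, against 4.28% of expressed genes in differentiating and 0.397% in proliferating cells. Ltbp3 (-0.88) and Tgfb3 (-0.75) were farthest from 0 in differentiating cells. Of 11 measured TGF-beta target genes 9 were above 0 with siMUNC in differentiating cells (median 0.18, against 55.1% above 0 and 0.03 over all expressed genes), led by Timp1, an inhibitor of metalloproteases (0.91), and 5 in proliferating cells (44.0% of all).

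Among 14 measured receptors and partners of CCN proteins, the integrin subunit Itgb3 was past 2-fold lower in differentiating control cells (-1.56) and stood at -0.42 in siMUNC cells, and its difference of effects was 1.13. Itgb3 read 8.87 in siMUNC differentiating, 8.58 in control differentiating, 9.30 in siMUNC proliferating and 10.14 in control proliferating cells. Also past 2-fold in differentiating control cells were Igf2r, the mannose 6-phosphate receptor (1.09, and 0.999 in siMUNC cells), and the dim Fgfr2 (-1.05, and -0.78 with an offset of 50). Itga6, which pairs with Itgb1 as a receptor of Ccn1, was past 2-fold higher in differentiating control cells (1.07) and past 2-fold lower with siMUNC in differentiating cells (-1.04). Of the 14 genes 2 were past 2-fold higher and 2 lower in differentiating control cells, against 5.21% and 6.58% of expressed genes. Only 11 of the 14 were expressed in that comparison, and Fgfr2, counted among the lower genes, was not. With siMUNC in differentiating cells 1 was past 2-fold lower, against 2.29% of expressed genes. The common subunits Itgb1 (12.43 to 12.47) and Itgav (11.66 to 12.04) varied little. Notch1, the partner of Ccn3, read 10.13 in siMUNC differentiating, 10.63 in control differentiating, 10.18 in siMUNC proliferating and 10.21 in control proliferating cells, highest in control differentiating cells.

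Of 13 measured Notch pathway genes, the ligand Dll1 was past 2-fold higher in differentiating siMUNC (1.92) and control cells (1.66), as was the target Heyl in siMUNC cells (1.15, and 0.99 with an offset of 50), from dim values. Over all expressed genes 2.92% were past 2-fold higher in differentiating siMUNC cells and 5.21% in control cells. With siMUNC 0 of the 13 were past 2-fold in either state, against 4.28% of expressed genes in differentiating and 0.397% in proliferating cells. Of the 13, 9 were expressed in the comparison of differentiating and 6 in that of proliferating cells.

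Immediate early genes, to which Ccn1 and Ccn2 belong as serum-induced genes, had 18 of 19 members measured. In differentiating control cells Fosl1 (-1.60) and Myc (-1.02) were past 2-fold lower and the nuclear receptor Nr4a1 past 2-fold higher (1.38), Myc by a margin that 4 of 5 alternatives put within 2-fold. In differentiating siMUNC cells Egr1 was past 2-fold higher (1.14) and Fosl1 stood at -0.92. Over all expressed genes 4.26% were past 2-fold between states in siMUNC and 11.8% in control cells. With siMUNC 16 of 18 were above 0 in differentiating cells (median 0.19, against 55.1% and 0.03 over all expressed genes), with Myc past 2-fold higher (1.05, and 0.98 with an offset of 50), and 11 of 18 in proliferating cells (0.03, against 44.0% and -0.03), with Myc at 0.69 and Ier3 at 0.50.

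**Figure D5:**
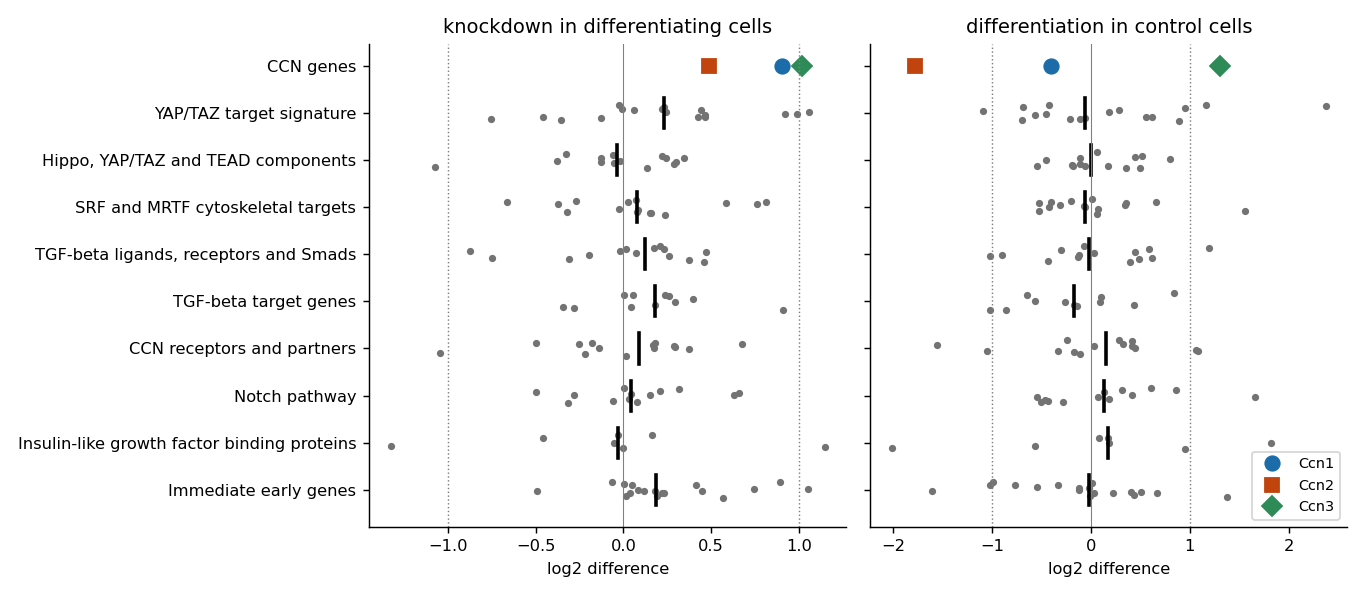
Each grey point is 1 measured gene of a pathway list (rows, CCN members left out), placed at its log2 difference (horizontal axes) for the knockdown in differentiating cells and for differentiation in control cells, with a black tick for the list's median and dotted lines at 2-fold. The list medians lie between -0.04 and 0.23 for the knockdown, and single list genes such as Nuak2 (1.06) and Myc (1.05) reach the values of Ccn1 (0.90), Ccn2 (0.49) and Ccn3 (1.02) in the top row.

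Markers of other cell types were read beside the CCN genes, since in bulk RNA a change in the number of cells of a type and in RNA per cell cannot be told apart. The summed level of 7 fibroblast markers, as log2 of the sum of linear values, was 13.57 in siMUNC differentiating, 13.93 in control differentiating, 11.16 in siMUNC proliferating and 11.58 in control proliferating cells. It was thus higher in differentiating cells, as was Ccn3, and lower with siMUNC in both states, where Ccn1 and Ccn2 were higher. The fibroblast sum rested on Dcn (10.70 to 13.38), while Dpt read 6.98 to 11.68 and Lum 5.13 to 10.39. Muscle markers summed to 14.96 in siMUNC differentiating, 15.69 in control differentiating, 13.82 in siMUNC proliferating and 13.86 in control proliferating cells. This sum was lower with siMUNC in differentiating cells, where Ccn1, Ccn2 and Ccn3 were higher. There 4 of 8 muscle markers were past 2-fold lower and 1 was above 0 (median -0.94). The farthest were Myog (-1.64), Ckm (-1.63) and Tnnc2 (-1.47). Over all expressed genes 2.29% were past 2-fold lower (median 0.03). In proliferating cells the muscle sum rested on Des (13.19 with siMUNC and 13.17 in control cells). With siMUNC 5 of the 8 muscle markers were above 0 there and 3 below, with Myl1 past 2-fold lower (-1.05) from dim values. The 6 macrophage markers summed to 9.87 in siMUNC differentiating, 9.44 in control differentiating, 9.97 in siMUNC proliferating and 10.01 in control proliferating cells. The macrophage sum was higher with siMUNC in differentiating cells, as were Ccn1, Ccn2 and Ccn3. In proliferating cells it was not higher with siMUNC, though Ccn1 and Ccn2 were. Its difference in differentiating cells rested on Cd14 (0.80) and Cd68 (0.48), while 3 of the 6 markers were below 0 there (median -0.05). The summed level of the 6 adipocyte markers ranged from 11.52 to 11.80 over the arrays. The part of these markers in the CCN differences was not tested.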

How the data were processed

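RNA of 4 C2C12 cultures, extracted with TRIZOL, was labelled with biotin and hybridised to Affymetrix whole-transcript arrays, 1 per group, per the labels' protocols. Per the submitters' processing notes, the authors made the deposited log2 values in Affymetrix Expression Console. The sources used here give neither its version nor the background correction, normalization or genome build. The log2 scale was inferred from the deposited values, which run from 2.56 to 14.3, above the 11.1 that a natural logarithm of a 16-bit reading can reach.

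Of 23332 clusters 14996 had 1 gene symbol in the platform's annotation, 1019 several and 7317 none. These gave 14860 genes, with the cluster of highest mean kept where a gene had several; 14941 clusters matched a RefSeq gene by Entrez identifier. Differences were taken between arrays as deposited, in Python 3.11.15 with pandas 2.3.3, and checked on simulated data. Alternatives were centring on medians, quantile normalization and cyclic loess (limma 3.58.1), an offset of 50 on the linear scale, dim values raised to each array's 25th percentile, and no filter on dim genes. Named genes were the CCN family, per list and comparison the up to 3 genes farthest in each direction past 2-fold (or the 2 farthest from 0 where none was), and the 5 nearest profiles per member; the other genes named (Ankrd1, Yap1, Wwtr1, Itgb1, Itgav, Notch1, the markers Myod1, Myf5, Des and Ptprc, and the neighbours Moxd1 and Mal2) were chosen for their roles or positions after their values were seen. The members and lists were chosen with earlier results of these data known. Array number limits the precision, and scanner files were not used here.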

Additional observations from a re-analysis of the deposited data

Results flagged for a closer look

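For 3 genes of the CCN family an effect had opposite signs in the groups set side by side, and with 1 array per group the difference was not tested. The knockdown difference of Ccn3 was 1.02 in differentiating and -0.15 in proliferating cells, the last from dim values. That of Ccn5 was -0.52 in differentiating and 0.029 in proliferating cells. The differentiation difference of Ccn4 was 0.35 in siMUNC and -0.23 in control cells.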

How the results depend on the processing

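Of the 75 values that 5 alternatives gave for the 15 differences of Ccn1, Ccn2 and Ccn3, 73 kept their direction and their side of 2-fold. The other 2 were the knockdown difference of Ccn3 in differentiating cells, at 0.99 after centring and 0.97 with an offset of 50. The count of genes past 2-fold for the knockdown in proliferating cells was 30, against 87 without the filter on dim genes, which adds genes, and 19 with the offset, which shrinks differences of dim genes. List medians close to 0 changed sign in 24 cases, and the cause was not tested. Centring put CCN receptors at -0.010 (differentiation, siMUNC) and 0.026 (knockdown, proliferating), Hippo components at -0.038 (difference of effects) and -0.0092 (differentiation, siMUNC), and insulin-like growth factor binding proteins at -0.031 (difference of effects). For differentiation in control cells, cyclic loess and quantile normalization put SRF targets at 0.023 and 0.040, the YAP and TAZ signature at 0.030 and 0.040, and, with centring as the third value, immediate early genes at 0.0077, 0.020 and 0.023, and TGF-beta ligands, receptors and Smads at 0.070, 0.076 and 0.019. For the knockdown in proliferating cells the same 3 settings put the TGF-beta ligands, receptors and Smads at 0.0077, 0.032 and 0.058 and the TGF-beta targets at 0.0075, 0.022 and 0.043. The Notch list came to 0.0096 under quantile normalization and 0.030 after centring there, and to 0.00079 under cyclic loess for differentiation in siMUNC cells. No paired analysis was possible because each group has 1 array.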

Other observations

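Insulin-like growth factor binding proteins, whose binding module resembles that of the CCN proteins had 7 members measured. Igfbp2 read 11.01 in siMUNC differentiating, 9.87 in control differentiating, 11.97 in siMUNC proliferating and 11.88 in control proliferating cells. It was past 2-fold lower in differentiating control cells (-2.01), stood at -0.96 in siMUNC cells, and was past 2-fold higher with siMUNC in differentiating cells (1.14). Igfbp4 had the opposite pattern, with 7.80 in siMUNC differentiating, 9.12 in control differentiating, 7.66 in siMUNC proliferating and 7.30 in control proliferating cells. Its differentiation difference was 0.13 in siMUNC and 1.83 in control cells, and its knockdown difference in differentiating cells was -1.33. The other 5 of the 7 genes were within 2-fold in all 4 comparisons between states or siRNAs. Past 2-fold in either direction were 11.8% of expressed genes for differentiation in control cells and 4.28% for the knockdown in differentiating cells.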
